A study of Mus musculus with 8 samples.

Results

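Genes of arginine and nitric oxide metabolism, 8 in all, were followed in immune cells of MC38 tumours: the arginine transporters Slc7a1 and Slc7a2, the enzymes Nos2, Arg1 and Arg2 that consume arginine, the enzymes Ass1 and Asl that rebuild it, and Odc1, which carries one arginase product into polyamines. They were chosen by name, and all 8 were found among the 27405 genes listed in the union of the libraries. MC38 is a mouse colon carcinoma line, and CD45+ cells were sorted from its tumours in wild-type mice and sequenced in droplets, with unique molecular identifiers (UMIs) counting transcripts. There were 2 LNP-Sirpa libraries, from tumours after a treatment that the series title describes as tumour-directed degradation of SIRPα, an inhibitory receptor of phagocytes, and 2 control libraries, whose treatment the labels do not describe further. No age, dose or time is given in the labels, and nothing says whether the libraries of a group come from separate mice. P-values between the groups are therefore about the spread among 4 libraries, which may be technical. Those of tests with the library as a block are about how differences within a library vary over the same 4 libraries.

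Arginine enters cells through cationic amino acid transporters. Inducible nitric oxide synthase, encoded by Nos2, turns it into nitric oxide and citrulline. Arginase, encoded by Arg1 in the cytosol and Arg2 in mitochondria, turns it into ornithine and urea. Citrulline can be returned to arginine by argininosuccinate synthase (Ass1) and argininosuccinate lyase (Asl), and ornithine decarboxylase (Odc1) takes ornithine into polyamine synthesis. In mouse macrophages Nos2 is classically induced by interferon-γ and microbial products and Arg1 by interleukin-4, interleukin-13, hypoxia or lactate, and tumour macrophages are known to carry both.

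The LNP-Sirpa matrices held 10348 and 9008 cell barcodes with 85810250 and 70581678 UMIs, and the control matrices held 7511 and 10890 barcodes with 68654004 and 90789729 UMIs. Pairs of libraries shared 830 to 1242 barcode names, none with the same number of UMIs. Fibroblast-gated cells, which the CD45 sort should remove, numbered 310 and 95 in LNP-Sirpa libraries and 238 and 257 in control libraries. Sirpa transcripts in monocyte/macrophage-gated cells stood at 472 and 355 in LNP-Sirpa libraries and at 554 and 552 in control libraries, in UMIs of a gene per 1000000 UMIs of a class in a library (CPM), the unit of all levels below. Cells were put into classes by summed UMIs of marker genes, none of them a member. The monocyte/macrophage gate, on 9 genes such as Csf1r, Adgre1 and Cd68, took 5006 and 6197 cells in LNP-Sirpa libraries and 5644 and 7875 cells in control libraries. Smaller gates took dendritic, neutrophil, CD8 T, regulatory T, other T and NK cells, from 43 to 556 cells in each library. Cells that passed the gates of several lineages were left out, apart from those described next. Where only the monocyte/macrophage gate and the neutrophil or dendritic gate were passed, a cell with the larger neutrophil or dendritic sum kept that class. The cells left out numbered 2187 and 944 in LNP-Sirpa libraries, against 499 and 1260 in control libraries. B-gated cells, 3 to 13 in each library, were too few for a test. Levels are compared within a gene, not between genes.

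RefSeq promoter windows were at hand for 3 of the 8 members. The promoters of Ass1, whose transcripts were higher after treatment in phagocytes, and of Odc1, whose level differed by cell type but not detectably by treatment, are shown. Each runs from 250 bases before to 50 bases after the start site in GRCm38.p6, on the + strand, at chr2:31470020-31470319 for Ass1 and chr12:17544623-17544922 for Odc1. Capitals mark matches on either strand to CACGTG, the E-box core that contains the hypoxia-response core ACGTG, and to the GC box GGGCGG, which do not overlap each other here.
Ass1: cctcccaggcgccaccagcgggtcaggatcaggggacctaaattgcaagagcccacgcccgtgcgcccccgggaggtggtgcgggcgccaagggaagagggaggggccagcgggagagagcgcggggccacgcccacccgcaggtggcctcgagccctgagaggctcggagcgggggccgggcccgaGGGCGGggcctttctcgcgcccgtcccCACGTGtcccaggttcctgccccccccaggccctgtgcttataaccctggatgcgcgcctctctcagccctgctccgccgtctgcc
Odc1: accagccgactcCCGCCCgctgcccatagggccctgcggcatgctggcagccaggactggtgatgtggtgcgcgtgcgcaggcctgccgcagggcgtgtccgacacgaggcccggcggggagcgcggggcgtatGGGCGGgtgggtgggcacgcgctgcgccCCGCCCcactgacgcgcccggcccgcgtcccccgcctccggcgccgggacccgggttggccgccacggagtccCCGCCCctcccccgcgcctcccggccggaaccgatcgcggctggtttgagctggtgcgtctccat
The Ass1 window held 1 CACGTG, starting 36 bases before the start site, and 1 GC box, and the Odc1 window held 0 CACGTG and 4 GC boxes. CACGTG was present in 7.15% and GGGCGG in 35.7% of the 32851 promoter windows in the table. TTCNNNGAA, the core bound by STAT factors, was in neither window and in 8.30% of all windows. Both windows were rich in G and C, at 74.0% for Ass1 and 78.0% for Odc1, against a median of 52.7% over all windows. A match is a run of letters and no evidence of binding.

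In monocyte/macrophage-gated cells Nos2, Ass1 and Slc7a2 rose after LNP-Sirpa treatment, 3 of 8 members, and no member fell (edgeR quasi-likelihood test, Benjamini-Hochberg adjusted over all genes). The same call was made for 1.21% of the 16230 genes tested in the direction of higher levels. The median log2 fold change was 1.76 over the members and -0.01 over all genes tested. The rises joined an enzyme that uses arginine for nitric oxide, an enzyme that rebuilds arginine from citrulline and a transporter that brings arginine in.

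Nos2 stood at 155 and 132 CPM in LNP-Sirpa libraries and at 8.41 and 13.8 CPM in control libraries. Both treated libraries were far above both controls. The log2 fold change was 3.82 ± 0.29 (SE, adjusted p = 0.0170, 2 libraries per group). Ass1 stood at 139 and 147 CPM in LNP-Sirpa libraries and at 38.6 and 29.0 CPM in control libraries, a log2 fold change of 2.23 ± 0.20 (adjusted p = 0.0194). Its 2 treated values lay close together, so that the groups were separated by much more than either group's spread. Slc7a2, the transporter also called CAT2, stood at 257 and 349 CPM in LNP-Sirpa libraries and at 47.7 and 80.0 CPM in control libraries. Its log2 fold change was 2.39 ± 0.35 (adjusted p = 0.0442).

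Arg1, the cytosolic arginase, had the larger spread. It reached 3201 and 5884 CPM in LNP-Sirpa libraries, against 1152 and 1388 CPM in control libraries. The groups did not overlap, and the treated libraries differed from each other by more than the controls did. The log2 fold change of 2.01 ± 0.42 did not pass the test (adjusted p = 0.0720). Arg2, the mitochondrial arginase, had 39.2 and 52.3 CPM in LNP-Sirpa libraries and 13.7 and 22.0 CPM in control libraries, a log2 fold change of 1.51 ± 0.32 that did not pass either (adjusted p = 0.0751).

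The remaining members differed less between the groups. Asl, which completes the return to arginine after Ass1, had 37.4 and 38.3 CPM in LNP-Sirpa libraries and 45.5 and 40.6 CPM in control libraries (log2 fold change -0.04 ± 0.15, adjusted p = 0.918). Slc7a1, the transporter CAT1 of most cell types, had 55.1 and 38.5 CPM in LNP-Sirpa libraries and 46.1 and 36.2 CPM in control libraries (log2 fold change 0.31 ± 0.17, adjusted p = 0.370). Odc1 had 171 and 144 CPM in LNP-Sirpa libraries and 131 and 173 CPM in control libraries (log2 fold change 0.18 ± 0.20, adjusted p = 0.684). For Slc7a1 and Odc1 the values of the 2 groups overlapped. In all, 5 members were higher in both LNP-Sirpa libraries than in both controls, as were 15.9% of the 16230 genes, and Asl was lower in both, as were 37.5% of them.

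**Figure D1:**
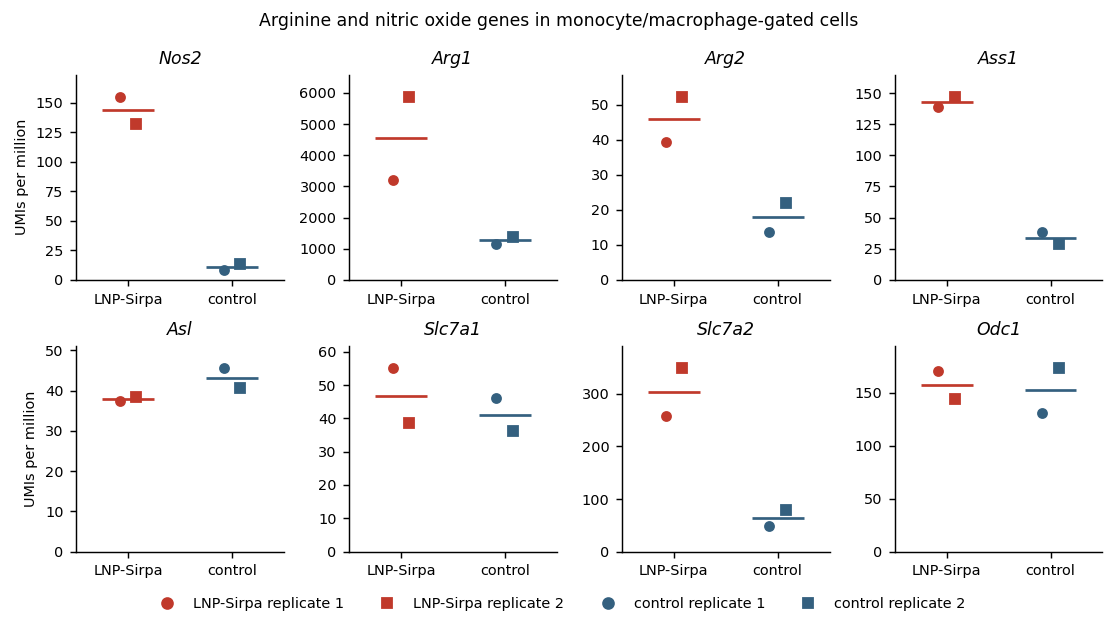
Level of the 8 members in monocyte/macrophage-gated cells, in CPM on linear axes from 0; points are libraries, lines are group means, with LNP-Sirpa left of control. Nos2, Ass1, Slc7a2, Arg1 and Arg2 are higher in both LNP-Sirpa libraries, Asl is lower in both, and Slc7a1 and Odc1 overlap; the Nos2 points sit at 155 and 132 for LNP-Sirpa and at 8.41 and 13.8 for control.

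The calls of Ass1 and Slc7a2 rested on both control libraries, and that of Nos2 on control replicate 1. Without control replicate 1, 0 of 8 members and 0 genes in all passed, with 5 members at an unadjusted p under 0.05 and log2 fold changes of 3.47 for Nos2, 2.41 for Ass1 and 2.04 for Slc7a2. Without control replicate 2, Nos2 alone passed, and without LNP-Sirpa replicate 2 Slc7a2 was lost (adjusted p = 0.0503). With cells of several gates kept, 1 of 8 members passed (Nos2), and 14 genes in all against 257, while DESeq2 called 5 of 8 members higher, Arg1 and Arg2 included.

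Other genes of the pathway were followed in the same cells. Of 55 further genes of nitric oxide synthesis, urea cycle, polyamines, transport and regulation, 48 were tested, 2 rose and none fell, with a median log2 fold change of -0.03. Over all 16230 genes tested 1.21% rose and 0.37% fell. Smox, which oxidises spermine, had 152 and 154 CPM in LNP-Sirpa libraries and 73.4 and 82.8 CPM in control libraries (log2 fold change 1.11 ± 0.17, adjusted p = 0.0453). Hif1a, a hypoxia-inducible transcription factor known to act on Nos2 and Arg1, had 193 and 141 CPM in LNP-Sirpa libraries and 62.4 and 68.7 CPM in control libraries (1.47 ± 0.17, adjusted p = 0.0347). None of the other polyamine genes and none of the genes that make or recycle the Nos2 cofactor tetrahydrobiopterin passed. Gch1, which starts that synthesis, had 64.1 and 37.6 CPM in LNP-Sirpa libraries and 27.6 and 29.6 CPM in control libraries (0.94 ± 0.21, adjusted p = 0.0792).

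The makeup of the gate differed between the groups. Cells in a monocyte sub-gate, on genes such as Ly6c2, Plac8 and Ccr2, made up 19.7% and 19.4% of monocyte/macrophage-gated cells in LNP-Sirpa libraries, against 5.30% and 2.84% in control libraries. Ly6c2 itself stood at 356 and 166 CPM in LNP-Sirpa libraries and at 37.6 and 18.7 CPM in control libraries. Summed neutrophil markers, 7 genes, stood at 161 and 79.1 CPM in LNP-Sirpa libraries and at 32.0 and 40.8 CPM in control libraries, with all 7 detected in each. The part of this makeup in the rises over the whole gate was not tested, and each sub-gate was also compared by itself.

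Within the monocyte sub-gate 4 of 8 members rose after treatment, where 1.53% of 10945 genes rose. Nos2 had 316 and 153 CPM in LNP-Sirpa libraries and 21.8 and 25.6 CPM in control libraries (log2 fold change 3.36 ± 0.38, adjusted p = 0.00822). Arg1 had 6409 and 6727 CPM in LNP-Sirpa libraries and 2254 and 2816 CPM in control libraries (1.42 ± 0.20, adjusted p = 0.00354). Here the treated Arg1 values were close together, unlike those over the whole gate. Arg2 rose by 0.93 ± 0.21 (adjusted p = 0.0380) and Slc7a2 by 1.81 ± 0.19 (adjusted p = 0.000569) on the log2 scale. Ass1 had 269 and 198 CPM in LNP-Sirpa libraries and 147 and 121 CPM in control libraries and did not pass (0.84 ± 0.20, adjusted p = 0.0511).

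In the macrophage sub-gate, on C1qa, Mrc1, Trem2 and related genes, 0 of 8 members passed (edgeR), with 4 at an unadjusted p under 0.05. Only 0.0393% of 15272 genes passed in either direction there. Nos2 nevertheless had 92.7 and 111 CPM in LNP-Sirpa libraries and 6.98 and 13.0 CPM in control libraries (log2 fold change 3.49 ± 0.38, adjusted p = 0.0751). Ass1 had 90.5 and 123 CPM in LNP-Sirpa libraries and 24.1 and 24.0 CPM in control libraries (2.32 ± 0.26, adjusted p = 0.0751). The difference in response between the sub-gates did not pass for any of the 8 members (0.651% of 13212 genes passed, and 0 members had an unadjusted p under 0.05), which does not show that the responses were alike.

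Macrophage-gated cells, set against monocyte-gated cells of the same library, had lower Arg1, Arg2 and Slc7a1, 3 of 8 members, where 16.6% of 13212 genes were lower. The log2 differences were -1.10 ± 0.26 for Arg1 (adjusted p = 0.0280), -1.84 ± 0.20 for Arg2 (adjusted p = 0.000439) and -0.73 ± 0.10 for Slc7a1 (adjusted p = 4.58e-05). The monocyte sub-gate list held F10, a gene whose levels over classes and libraries were much like those of Arg1 (Pearson r = 0.91). The choice of monocyte-gated cells was therefore not independent of Arg1, and the part of this in its difference was not tested. Without control replicate 1 (adjusted p = 0.116) or without a filter on low counts (0.112), Arg1 did not pass. Arg2 in macrophage-gated cells had 19.6 and 36.6 CPM in LNP-Sirpa libraries and 10.5 and 19.2 CPM in control libraries. In monocyte-gated cells it had 87.7 and 90.1 CPM in LNP-Sirpa libraries and 45.8 and 51.2 CPM in control libraries, above macrophage-gated cells in each of the 4 libraries. Nos2 (-1.29 ± 0.36, adjusted p = 0.0660) and Ass1 (-1.86 ± 0.46, adjusted p = 0.0657) did not pass.

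Across cell types the class with the highest level differed between members, though some members shared a class. Nos2, Arg1 and Slc7a2 were highest in the monocyte/macrophage, neutrophil or dendritic gate of each library. Arg2 was highest in neutrophil-gated cells, Asl in dendritic-gated cells, and Odc1 in regulatory T cells. Slc7a1 was also highest in regulatory T cells of each library, in LNP-Sirpa replicate 1 at 189 CPM against 187 CPM in other T cells. Ass1 was shared by dendritic-gated cells, regulatory T cells and, after treatment, monocyte/macrophage-gated cells. These differences between classes were chosen for testing after the levels had been seen.

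**Figure D2:**
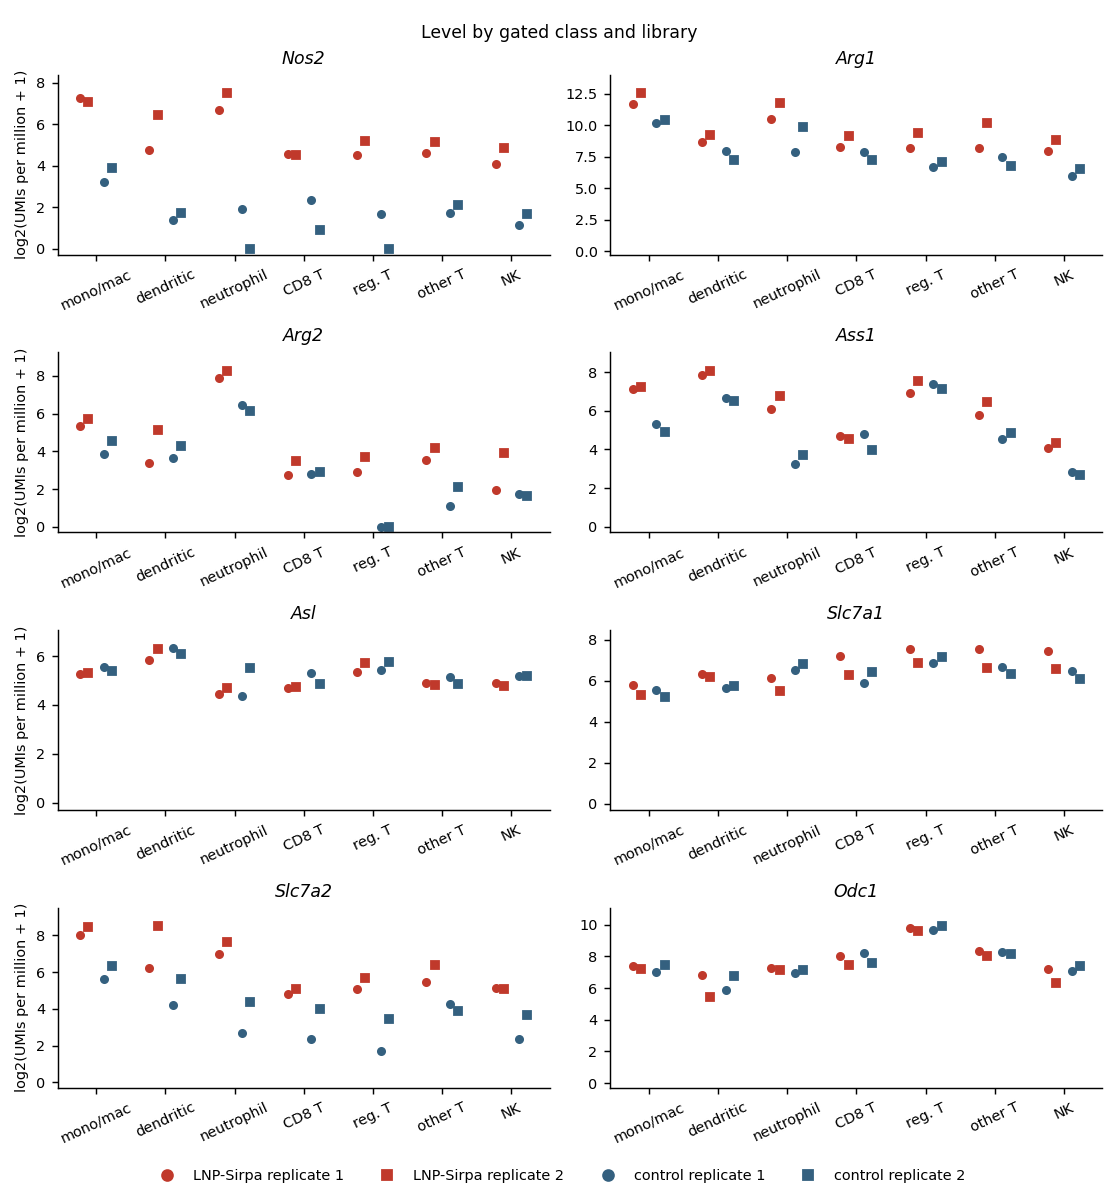
Level of each member as log2(CPM + 1) in 7 gated classes; each point is a library, with LNP-Sirpa left of control within a class. Arg2 peaks in the neutrophil gate and Odc1 in the regulatory T gate in all 4 libraries, and Nos2 is low in every control class.

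Arg2 in neutrophil-gated cells stood at 232 and 305 CPM in LNP-Sirpa libraries and at 86.1 and 68.0 CPM in control libraries. In each library this was above every other class tested. Neutrophil-gated minus monocyte/macrophage-gated cells gave a log2 difference of 2.43 ± 0.17 with the library as a block (adjusted p = 4.89e-44). In that comparison 6 of 8 members differed, and so did 19.6% of 13773 genes. Slc7a1 was also higher in neutrophil-gated cells (0.73 ± 0.18, adjusted p = 0.000697), while Arg1, Ass1, Asl and Slc7a2 were lower.

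Neutrophil-gated cells had 4 of 8 members higher after treatment, where 2.70% of 6305 genes were higher. Arg2 rose by 1.90 ± 0.32 on the log2 scale (adjusted p = 0.00789). Slc7a2 had 128 and 195 CPM in LNP-Sirpa libraries and 5.55 and 20.001 CPM in control libraries (3.88 ± 0.53, adjusted p = 0.00315). The controls held 2 and 5 UMIs of it, and the ratio of summed rates was 13.1, with an exact 95% counting interval of 6.29 to 32.8. Ass1 had 66.2 and 109 CPM in LNP-Sirpa libraries and 8.33 and 12 CPM in control libraries (3.22 ± 0.52, adjusted p = 0.00672). The controls held 3 UMIs each, and the ratio was 8.16 (3.67 to 22.5). Nos2 had 146 and 129 UMIs in LNP-Sirpa libraries, against 1 and 0 UMIs in control libraries, so its size is poorly bounded: the ratio of summed rates was 77.4, with an exact 95% interval of 13.8 to 3067 that covers counting error only (adjusted p = 0.00189). Without control replicate 2 neither Arg2 (adjusted p = 0.0873) nor Ass1 (0.0607) passed, and without control replicate 1 Ass1 did not (0.0668), while Nos2 and Slc7a2 passed in every alternative.

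The neutrophil gate did not hold equal cells in the 2 groups. It took 335 and 189 cells in LNP-Sirpa libraries and 60 and 57 in control libraries. S100a8, a defining neutrophil gene, stood at 28497 and 20671 CPM in LNP-Sirpa libraries and at 6732 and 6872 CPM in control libraries. The 5 phagocyte genes C1qa, C1qb, C1qc, Apoe and Lyz2 stood in these cells at 39.7% to 66.6% of their monocyte/macrophage level across the 4 libraries. Slc7a2 stood at 49.8% and 55.9% in LNP-Sirpa libraries, above the median of the 5 (45.8% and 47.3%) but below the highest (52.6% and 58.9%). In control libraries Slc7a2 stood at 11.6% and 24.996%, below all 5. Ass1 stood at 47.6% and 73.8% in LNP-Sirpa libraries, above all 5 in replicate 2 alone. In control libraries Ass1 stood at 21.6% and 41.3%, below all 5. Nos2 stood at 64.9% and 136% in LNP-Sirpa libraries, above all 5, and at 33.0% and 0% in control libraries, below all 5. Arg2 stood at 590% and 583% in LNP-Sirpa libraries and at 630% and 309% in control libraries, above all 5 in every library. The part of the gate's purity in the rises of all 4 members, and that of free RNA in those of Nos2, Slc7a2 and Ass1, was not tested.

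Among the 7 gated classes, sub-gates aside, dendritic-gated cells had the highest Ass1 after treatment. It stood there at 227 and 266 CPM in LNP-Sirpa libraries and at 102 and 91.0 CPM in control libraries. The rise of 1.27 ± 0.23 on the log2 scale passed (adjusted p = 0.0311), as did Nos2, which made 2 of 8 members where 1.06% of 8493 genes rose. Nos2 there was counted at 43 and 20 UMIs in LNP-Sirpa libraries and 2 and 3 UMIs in control libraries, a ratio of 16.7 with an exact 95% counting interval of 6.80 to 53.3 (adjusted p = 0.0352). As a share of the monocyte/macrophage level, dendritic Nos2 stood at 16.6% and 64.9% in LNP-Sirpa libraries, where the 5 phagocyte genes spanned 14.0% to 15.5% and 9.65% to 15.01%. It stood at 19.2% and 16.9% in control libraries, within their 18.0% to 25.1% and 15.3% to 20.5%, so that it stood well clear of them in LNP-Sirpa replicate 2 alone. The part of free RNA in this rise was not tested. LNP-Sirpa replicate 2 held only 43 dendritic-gated cells, and without it Nos2 did not pass (adjusted p = 0.0713). Ass1 did not pass whichever of the 4 libraries was left out (adjusted p = 0.0770 to 0.172). Xcr1, a marker of one dendritic type, stood at 145 and 4.29 CPM in LNP-Sirpa libraries and at 22.6 and 84.8 CPM in control libraries, so the makeup of this gate varied within each group, and its part was not tested.

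Set against monocyte/macrophage-gated cells of the same library, dendritic-gated cells differed in all 8 members, where 35.4% of 13953 genes differed. Ass1 was higher by 1.23 ± 0.14 (adjusted p = 1.97e-15), Asl by 0.85 ± 0.15 (adjusted p = 1.75e-07) and Slc7a1 by 0.58 ± 0.15 (adjusted p = 0.000824) on the log2 scale. Both enzymes that rebuild arginine were thus higher in dendritic-gated cells. Arg1, Nos2, Slc7a2, Odc1 and Arg2 were lower there, Arg1 by a log2 difference of -2.85 ± 0.16 (adjusted p = 2.04e-50).

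Regulatory T cells, gated on Foxp3, Ikzf2 and Il2ra, stood out for Odc1 and Ass1. Odc1 had 892 and 770 CPM in LNP-Sirpa libraries and 828 and 955 CPM in control libraries. In CD8 T cells of the same libraries it had 256 and 173 CPM in LNP-Sirpa libraries and 298 and 189 CPM in control libraries. All 4 regulatory T values were above all values of the other 6 classes. Regulatory T minus CD8 T gave 1.76 ± 0.12 on the log2 scale (adjusted p = 1.84e-09), one of 4 members that were higher where 11.1% of 9121 genes were higher.

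Ass1 in regulatory T cells had 121 and 184 CPM in LNP-Sirpa libraries and 166 and 137 CPM in control libraries. Here the groups overlapped, and the log2 fold change was -0.03 ± 0.25 (adjusted p = 0.992). CD8 T cells had 25.3 and 22.1 CPM in LNP-Sirpa libraries and 26.3 and 14.8 CPM in control libraries, and the regulatory T minus CD8 T difference was 2.54 ± 0.16 (adjusted p = 2.92e-10). Asl (0.55 ± 0.18, adjusted p = 0.0288) and Slc7a1 (0.40 ± 0.12, adjusted p = 0.0249) were higher in regulatory T cells too.

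The Ass1 response therefore differed by cell type. Its log2 fold change in monocyte/macrophage-gated cells exceeded that in regulatory T cells by 2.21 ± 0.25 (test of the difference with the library as a block, adjusted p = 1.54e-15). In this test 1 of 8 members passed, and 0.898% of 13918 genes did. Against neutrophil-gated cells (1.10% of 13773 genes) and dendritic-gated cells (0.509% of 13953 genes) the responses of 0 of 8 members differed by the same test, with 4 and 3 members at an unadjusted p under 0.05.

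**Figure D3:**
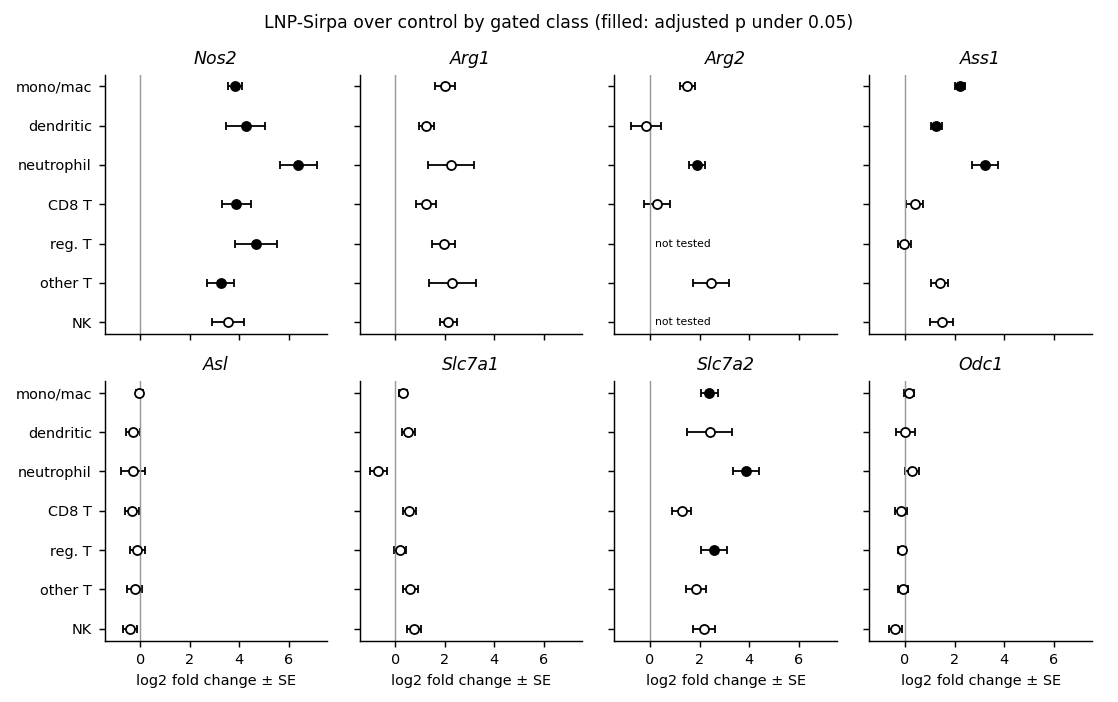
Log2 fold change, LNP-Sirpa over control, with its SE, for each member in 7 gated classes from edgeR; filled points passed at an adjusted p under 0.05. Nos2 lies between 3.24 and 6.38 in every class, Ass1 is near 0 in regulatory T cells (-0.03) and at 2.23 in monocyte/macrophage-gated cells, and Odc1 and Asl lie between -0.41 and 0.27.

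Lymphocytes carried few UMIs of Nos2 and Slc7a2, but Arg1 UMIs were common in them. Counting all UMIs, at least 1 of Arg1 was held by 56.2% and 80.6% of T and NK cells in LNP-Sirpa libraries. In control libraries the shares were 39.9% and 37.6%. Nos2 was called higher in CD8 T (1 of 8 members, 0.188% of 10104 genes), regulatory T (2 of 8 with Slc7a2, 0.269% of 7802 genes) and other T cells (1 of 8, 0.167% of 8386 genes). In CD8 T cells Nos2 had 91 and 50 UMIs in LNP-Sirpa libraries and 2 and 2 UMIs in control libraries (ratio 15.98, exact 95% counting interval 6.11 to 59.5, adjusted p = 0.00899). Without control replicate 2 the CD8 T call was lost (adjusted p = 0.249). The regulatory T calls of Nos2 and Slc7a2 were lost with DESeq2 (0.384 and 0.341), and that of Nos2 without LNP-Sirpa replicate 2 (0.0674) and that of Slc7a2 with a stricter gate (0.106). In other T cells Nos2 was lost with DESeq2 and without 3 of the 4 libraries, LNP-Sirpa replicate 1 being the exception (adjusted p = 0.0550 to 0.151). In NK cells 0 of 8 members passed with edgeR, and 0 of 8502 genes did (0%), with 5 members and 796 genes at an unadjusted p under 0.05; DESeq2 called Arg1 there. Arg2 was too low for the test in regulatory T and NK cells.

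These levels were set beside genes that lymphocytes should lack. In all T and NK cells together the 5 phagocyte genes stood at 12.8% to 14.4% and 11.1% to 15.1% of their monocyte/macrophage level in the LNP-Sirpa libraries, and at 13.0% to 14.5% and 14.1% to 15.9% in the control libraries. Nos2 stood at 13.4% and 21.2% in LNP-Sirpa libraries and at 23.9% and 10.5% in control libraries, the control values from 7 UMIs each. Slc7a2 stood at 12.9% and 13.2% in LNP-Sirpa libraries and at 15.7% and 16.8% in control libraries. Arg1 stood at 8.83% and 11.8% in LNP-Sirpa libraries and at 10.5% and 9.14% in control libraries, below the highest of the phagocyte genes in each. Arg2 stood at 15.4% and 23.8% in LNP-Sirpa libraries and at 16.8% and 18.8% in control libraries, above all 5 in each library. The control values came from low levels, 2.30 to 4.14 CPM. By class Arg2 was above all 5 in 3 of 4 libraries in CD8 T cells, and in 2 of 4 in regulatory T, other T and NK cells. Nos2 was also set beside these genes in the classes where it was called. In LNP-Sirpa replicate 2 it was above all 5 in CD8 T cells (16.7% against a highest of 13.0%). The same held in regulatory T (26.8% against 14.7%) and other T cells (26.3% against 23.2%). In LNP-Sirpa replicate 1 it was below the highest of the 5 in each of these classes. Its control shares went both ways, from 4, 1 and 5 UMIs over both libraries. The part of free RNA in the T cell calls was not tested beyond these values.

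Slc7a1, Odc1 and Asl, over T and NK cells together, lay far above that range. In T and NK cells Slc7a1 stood at 309% and 236% of the monocyte/macrophage level in LNP-Sirpa libraries and at 197% and 242% in control libraries. Odc1 stood at 209% and 205% in LNP-Sirpa libraries and at 224% and 173% in control libraries. Asl stood at 78.0% and 80.3% in LNP-Sirpa libraries and at 80.2% and 80.1% in control libraries. Ass1 stood at 32.8% and 45.0% in LNP-Sirpa libraries and at 87.2% and 107% in control libraries over these cells together. It was highest in regulatory T cells, at 86.7% and 125% in LNP-Sirpa libraries and 432% and 473% in control libraries. In CD8 T cells Ass1 stood at 18.2% and 15.02% in LNP-Sirpa libraries, just above the highest phagocyte gene there (14.98% and 13.0%), and at 68.2% and 51.0% in control libraries. In NK cells it stood at 11.3% and 13.1% in LNP-Sirpa libraries, against a highest phagocyte gene of 10.8% and 13.0%, and at 15.5% and 18.5% in control libraries, against 10.7% and 13.4%. Over T and NK cells together Slc7a1 and Odc1 were thus above monocyte/macrophage-gated cells in each library, but Odc1 in NK cells alone stood at 87.2% and 56.0% in LNP-Sirpa libraries and at 104% and 95.6% in control libraries. In control libraries neutrophil-gated cells had more Slc7a1 (91.7 and 112 CPM) than T and NK cells (90.8 and 87.6 CPM).

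**Figure D4:**
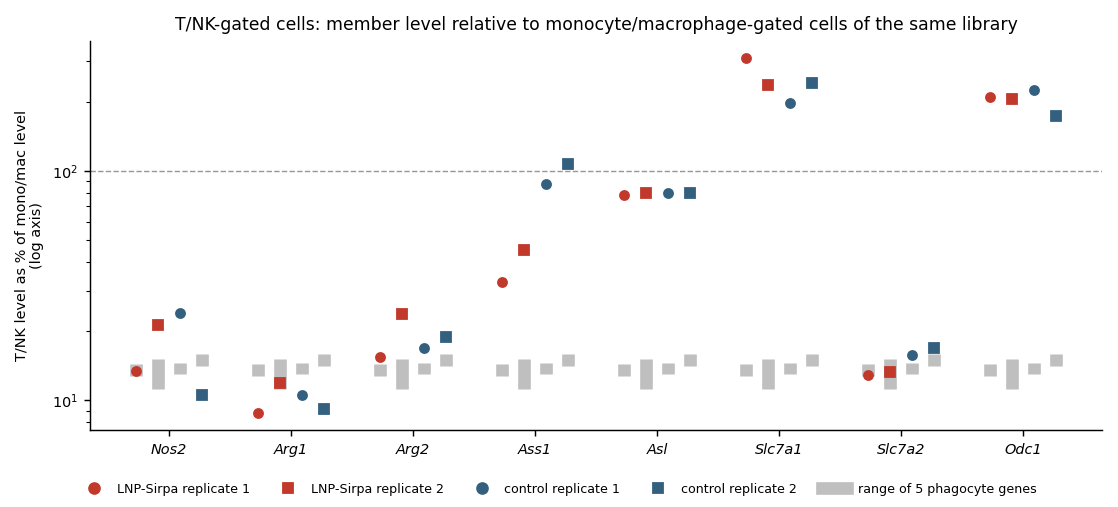
Level of each member in T and NK cells together as a percent of its level in monocyte/macrophage-gated cells of the same library, on a log axis; grey bars span 5 phagocyte genes in that library. Arg1 and Slc7a2 lie at or near the grey bars, while Slc7a1 and Odc1 lie between 173% and 309%.

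Nos2 and Arg1 draw on the same arginine, and their UMIs were compared cell by cell in the monocyte/macrophage gate. Cells were thinned to 2000 UMIs each, which left out 781 and 820 shallower cells in LNP-Sirpa libraries and 867 and 1139 in control libraries. A cell counted as positive at 2 or more Nos2 UMIs and at 5 or more Arg1 UMIs, the smallest counts reached by under 5% of T and NK cells in every library. At these minima 0.286% and 0.528% of T and NK cells were Nos2-positive in LNP-Sirpa libraries and 0% in both control libraries. Arg1-positive were 2.22% and 4.49% of T and NK cells in LNP-Sirpa libraries and 1.40% and 0.801% in control libraries.

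Nos2-positive cells were few and Arg1-positive cells common. Nos2-positive were 7.55% (95% exact interval 6.77% to 8.39%) and 5.45% (4.86% to 6.09%) of the cells in LNP-Sirpa libraries, against 0.147% (0.0589% to 0.302%) and 0.490% (0.337% to 0.687%) in control libraries. Arg1-positive were 37.5% and 70.2% in LNP-Sirpa libraries, against 13.9% and 16.6% in control libraries. Without thinning and at 1 UMI, 31.2% and 34.0% held Nos2 in LNP-Sirpa libraries and 3.60% and 5.55% in control libraries. With 2 libraries per group the exact permutation test (two-sided) cannot go below p = 0.333, which it gave for both shares. Median UMIs before thinning were 7092 and 7755 in LNP-Sirpa libraries and 8251 and 7374 in control libraries, and the intervals cover counting error only.

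Both genes were found in the same cells. Double-positive cells numbered 192 of 4225 (4.54%) and 221 of 5377 (4.11%) in LNP-Sirpa libraries, against 5 of 4777 (0.105%) and 15 of 6736 (0.223%) in control libraries. If the 2 shares were independent, 2.83% and 3.83% would be expected in LNP-Sirpa libraries and 0.0204% and 0.0812% in control libraries. The observed share was 1.61 and 1.07 times that product in LNP-Sirpa libraries and 5.13 and 2.74 times in control libraries, above 1 in all 4. The ratios of the 2 groups did not overlap (exact permutation p = 0.333, the smallest possible). Those of the controls rest on 5 and 15 cells. No ratio can exceed 1 divided by the Arg1-positive share, which was 37.5% and 70.2% in LNP-Sirpa libraries. Both control ratios lay above the caps that this sets for LNP-Sirpa libraries, so the groups could not have overlapped. The ratios therefore do not compare how often the genes shared cells in the 2 groups. At doubled minima the ratios were 1.85 and 0.803 in LNP-Sirpa libraries and 16.5 and 1.62 in control libraries, so that LNP-Sirpa replicate 2 fell below 1 and the groups overlapped, with 3 double-positive cells in the controls together.

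Arg1-positive cells made up 60.2% (95% exact interval 54.6% to 65.6%) and 75.4% (70.1% to 80.2%) of Nos2-positive cells in LNP-Sirpa libraries, and 71.4% (29.0% to 96.3%) and 45.5% (28.1% to 63.6%) in control libraries. Among the other cells they made up 35.6% and 69.9% in LNP-Sirpa libraries and 13.8% and 16.4% in control libraries. In LNP-Sirpa replicate 2 most cells were Arg1-positive whether or not they held Nos2. The converse also held in part: 127 and 72 cells in LNP-Sirpa libraries, and 2 and 18 in control libraries, were Nos2-positive without reaching the Arg1 minimum.

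**Figure D5:**
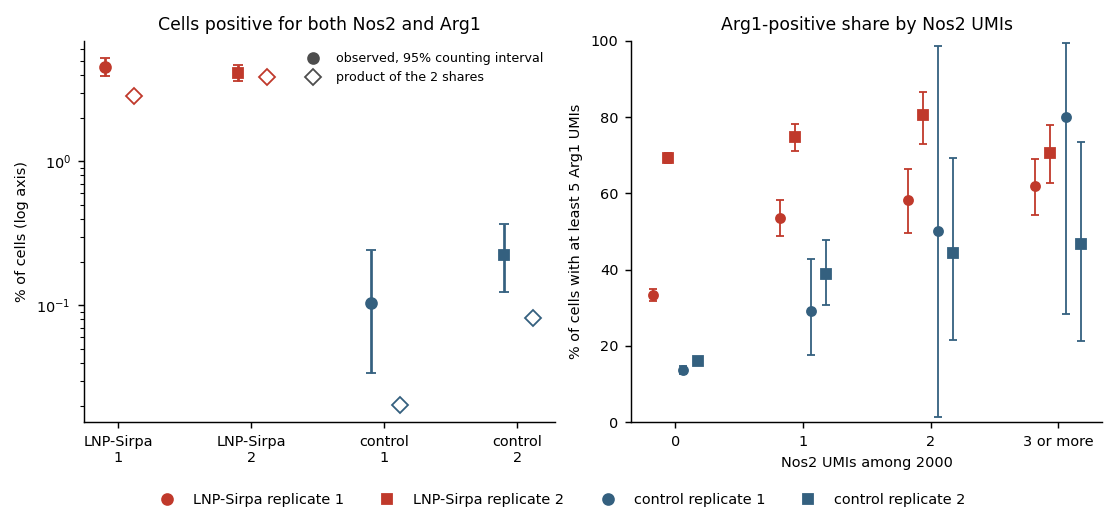
Left, share of monocyte/macrophage-gated cells positive for both Nos2 and Arg1 (log axis, filled, with 95% exact counting intervals) beside the product of the 2 single shares (open). Right, share of cells with at least 5 Arg1 UMIs by Nos2 UMIs among 2000; the share is above that at 0 Nos2 UMIs in each library, and the intervals at 2 or more UMIs in control replicate 1 rest on 7 cells in all.

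The share of Arg1-positive cells was followed by the number of Nos2 UMIs. In LNP-Sirpa replicate 1 it was 33.4% at 0 Nos2 UMIs, 53.6% at 1, 58.2% at 2 and 61.8% at 3 or more. In LNP-Sirpa replicate 2 it was 69.3%, 74.8%, 80.4% and 70.7% at the same steps, and the interval of the last (62.7% to 77.8%) holds the first. In control replicate 1 it was 13.7% and 29.1% at 0 and 1 Nos2 UMIs, with 1 of 2 cells at 2 and 4 of 5 cells at 3 or more. In control replicate 2 it was 15.97%, 39.0%, 44.4% and 46.7%, the last pair from 18 and 15 cells.

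Nos2-positive cells differed from Nos2-negative cells of the same library in their other arginine genes. Slc7a2, Arg2 and Ass1 were higher, 3 of the 7 members tested, where 7.44% of 13291 genes were higher; Nos2 itself defined the split and was not tested. Slc7a2 had 700 and 1102 CPM in Nos2-positive and 221 and 300 CPM in Nos2-negative cells of LNP-Sirpa libraries. In control libraries it had 321 and 609 CPM in Nos2-positive and 46.4 and 76.8 CPM in Nos2-negative cells. Each positive value was above its own negative value, and the log2 difference was 2.23 ± 0.17 (edgeR with the library as a block, adjusted p = 2.46e-33). Arg2 was higher by 1.31 ± 0.21 (adjusted p = 4.86e-08) and Ass1 by 1.24 ± 0.20 (adjusted p = 5.05e-08). With at least 1 Nos2 UMI as the rule, Ass1 did not pass (adjusted p = 0.0647).

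Arg1 did not pass in this split, at 1.27 ± 0.47 (adjusted p = 0.253). It had 6591 and 6365 CPM in Nos2-positive and 2997 and 5904 CPM in Nos2-negative cells of LNP-Sirpa libraries. In control libraries it had 6277 and 4059 CPM in Nos2-positive and 1154 and 1395 CPM in Nos2-negative cells. The positive cells lay between 4059 and 6591 CPM, and the negative cells were lower in control libraries. The test of that difference between groups passed for Arg1 (log2 difference -1.27 ± 0.26, adjusted p = 0.00177), as 0.233% of 13291 genes did. It rests on 7 and 33 Nos2-positive cells in control libraries, and without control replicate 1 (adjusted p = 0.379) or LNP-Sirpa replicate 2 (adjusted p = 1) it did not pass. Asl, Slc7a1 and Odc1 did not pass in the split.

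Slc7a2 was also the gene with the largest rise in Nos2-positive cells among those named with a mean of at least 50 CPM over Nos2-positive and Nos2-negative sums. It was followed by Upp1 (uridine phosphorylase, 2.09 ± 0.23 on the log2 scale), Lrrk2 (a kinase, 2.05 ± 0.22), Gbp5 (an interferon-induced guanylate-binding protein, 2.03 ± 0.21) and Ndrg1 (a hypoxia-responsive gene, 1.96 ± 0.18). Ero1a, the oxidase of the endoplasmic reticulum, Slc7a11, the cystine transporter, and Clec4e, the receptor Mincle, came next at 1.82 ± 0.19, 1.79 ± 0.19 and 1.78 ± 0.18. The largest falls were Tmem176b (-1.59 ± 0.24), Igfbp4 (-1.49 ± 0.24), Fcrls (-1.48 ± 0.21) and Cbr2 (-1.46 ± 0.23). All 12 passed, with adjusted p from 2.46e-33 to 1.30e-07. The Nos2-positive sums of control libraries came from 7 and 33 cells. Gbp5 went the other way in control replicate 1, at 0 CPM in Nos2-positive and 11.9 CPM in Nos2-negative cells. Lrrk2 differed little in control replicate 2, at 8.76 and 6.86 CPM. Apart from Gbp5, each named gene kept its direction in every library. Smox (1.22 ± 0.19, adjusted p = 1.01e-08) and Hif1a (1.01 ± 0.19, adjusted p = 1.25e-05), which rose with treatment over the whole gate, were higher in Nos2-positive cells too. Among the 55 pathway genes so were Gch1 (0.74), Nfkb1 (0.99), Irf1 (0.63) and Cebpb (0.62), the last 3 being transcription factors of inflammatory genes. Spr (-0.96), which makes tetrahydrobiopterin, and the polyamine genes Srm (-1.26), Paox (-1.08) and Oaz1 (-0.43) were lower (adjusted p from 3.98e-07 to 0.0308 over these 8 genes). No other pathway gene tested in the split passed. Over all 13291 genes tested there, 7.44% were higher and 4.09% lower.

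The macrophage sub-gate held 19.3% and 46.2% of double-positive cells in LNP-Sirpa libraries, against 62.7% and 54.0% of cells positive for neither gene. The monocyte sub-gate held 42.2% and 21.7% of double-positive and 12.6% and 20.4% of double-negative cells in the same libraries. Before thinning double-positive cells had a median of 5953 and 6647 UMIs in LNP-Sirpa libraries and 13219 and 4764 UMIs in control libraries. Double-negative cells had 7230 and 6799 UMIs in LNP-Sirpa libraries and 8079 and 7228 UMIs in control libraries. The mean ratio of the observed share to the product was 1.34 in LNP-Sirpa libraries and 3.94 in control libraries over the whole gate. Within the macrophage sub-gate alone it was 1.32 in LNP-Sirpa libraries and 2.97 in control libraries, and within the monocyte sub-gate alone 1.17 and 3.11, the last from 4 double-positive cells. The Arg1-positive share caps each ratio, so these means do not compare the groups. The part of doublets was not tested.

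Over the 28 sums of 7 classes in 4 libraries, the genes whose log2(CPM + 1) was most like that of Nos2, among 5713 genes, were Ly6i (Pearson r = 0.88), Inhba (0.85), Atp1b3 (0.84), Slc7a2 (0.83) and Gde1 (0.81). Those most like Arg1 were Il1a (0.93), Pdpn (0.92), F10 (0.91), Ctsl (0.90) and Mmp12 (0.90), of which F10 is also in the monocyte sub-gate list. The sums share libraries and free RNA, so the coefficients are descriptions. Slc7a2 was the only other member on either list.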

How the data were processed

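Per the labels, CD45+ cells from MC38 tumours were run on a DNBelab C kit in 1 batch, with 2 LNP-Sirpa and 2 control cDNA libraries. The oligo libraries were not analysed here. The submitters' processing notes name STAR 2.5.1b and GRCm39. Per the file headers, PISA 1.0 wrote the deposited matrices, which hold raw UMI counts. How cells were called, and which gene models were used, is not stated in the labels.

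Cells needed 500 UMIs, 300 genes and at most 15% mitochondrial UMIs, which 3 to 16 per library failed. Marker UMIs per 10000 gated the classes (minimum 12 for monocyte/macrophage; 155, 150, 146 and 136 ungated cells lay within 3 below it). Their minima were set after the distributions were seen, and no doublet caller was run. Cells in several gates were left out. Cells of the monocyte/macrophage gate whose neutrophil or dendritic sum was larger were kept in the neutrophil or dendritic class. Sums of UMI counts in each class of each library were tested with edgeR 4.0.16 (R 4.3.3; TMM, filterByExpr, robust quasi-likelihood F test), adjusted over all genes, at a threshold of 0.05. Python 3.11.15 with scipy 1.17.1 gave intervals and permutation tests. Fits were tested on simulated data.

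The members, gene lists and tests were chosen with earlier results of these data known, and the tests between classes, and of responses between classes, after the levels were seen. Named were the 8 members, pathway genes past the threshold, the 5 genes most like Nos2 and Arg1, and the 8 largest rises and 4 largest falls in Nos2-positive cells. Gch1, which falls outside this rule, was named after its values were seen. Alternatives were DESeq2 1.42.0, its size factors, no filter, each library left out, stricter gates and filters, thinning, mixed cells kept and the replicate number as a block.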

Additional observations from a re-analysis of the deposited data

Results flagged for a closer look

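The Ass1 response to LNP-Sirpa treatment differed between cell types: it was larger in monocyte/macrophage-gated than in regulatory T-gated cells by 2.21 ± 0.25 on the log2 scale (edgeR test of the difference, adjusted p = 1.54e-15). Over the 9 alternatives tried for it the difference ranged from 2.04 to 2.47 and passed in each.

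The Arg1 difference between Nos2-positive and Nos2-negative cells was smaller in LNP-Sirpa than in control libraries, by -1.27 ± 0.26 on the log2 scale (adjusted p = 0.00177). It passed in 4 of 9 alternatives. It did not pass with DESeq2 (-1.41, adjusted p = 0.947), with cells thinned to 2000 UMIs (-0.90, adjusted p = 0.862), with at least 1 Nos2 UMI as the rule (-0.73, adjusted p = 0.818), or without LNP-Sirpa replicate 2 or control replicate 1.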

How the results depend on the processing

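In monocyte/macrophage-gated cells the number of members called was 3; it was 5 with DESeq2, 5 with cells thinned to 2000 UMIs, 1 with mixed cells kept, and 0 to 4 with a library left out (a group left with 1 library is assumed to vary like the other). Genes called there were 257 by the fit as reported, 1398 with DESeq2, 1297 without a filter, 566 thinned, 14 with mixed cells kept and 0 to 1372 with a library left out. Over the other classes 10 member-by-class tests passed, against 20 without a filter and 8 to 17 with a library left out. Between macrophage and monocyte gates 3 members passed, against 5 with DESeq2 and 3 to 6 with a library left out. The mean control ratio of double-positive cells, 3.94, became 1.49 at 1 UMI of each gene and 9.04 at doubled minima, from 3 double-positive cells; there LNP-Sirpa replicate 2 fell to 0.803. The cause of these changes was not tested. Asl in monocyte/macrophage-gated cells changed sign when thinned (0.027) and ranged from -0.18 to 0.084 with a library left out; Odc1 ranged from -0.046 to 0.44. In the Nos2 split at 1 UMI, Slc7a1 (-0.027) and Odc1 (0.043) changed sign. None of these passed.

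Groups share only replicate numbers. With the number as a replicate block, 4 members passed in monocyte/macrophage-gated cells and 20 member-by-class tests elsewhere; deviations of same-numbered libraries correlated from -0.03 to 0.59 over the classes. Of 408 values of single genes under alternatives, 348 kept their direction and call, 33 lost the call, 21 gained it and 6 changed sign.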
